A study of Homo sapiens with 8 samples.

Results

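The 8 genes *SMAD7*, *PMEPA1*, *BAMBI*, *SKI*, *SKIL*, *SIK1*, *SMURF1* and *SMURF2* encode inhibitors that act back on TGFβ signalling. They were chosen by name as negative regulators of TGFβ receptors and SMADs, with earlier results of these data known. All 8 were among the 13307 genes measured by mRNA sequencing in Panc-1, a human cell line from a carcinoma of the pancreatic duct. The siNC cells were transfected with a non-targeting control siRNA (named siControl in the labels), and the siPHF13 cells with siRNAs against *PHF13*, which encodes a chromatin protein that reads methylated histone H3. Both kinds of cells were sequenced untreated and with TGFβ at 10 ng/ml for 48 h (siNC + TGFβ, siPHF13 + TGFβ), which makes 4 groups of 2 libraries. All libraries therefore come from transfected cells of 1 line, and untransfected cells were not analysed here. The sources do not say whether the 2 libraries of a group came from separate cultures, so p-values measure the spread between these libraries, which may be technical.

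TGFβ binds a pair of receptor kinases at the cell surface, which phosphorylate SMAD2 and SMAD3. These join SMAD4, enter the nucleus and activate target genes. Several of those targets encode proteins that shut the pathway down again, at the receptor, on the way to the nucleus or on chromatin, and such negative feedback limits how strongly and how long a cell responds. In epithelial tumours such as those of the pancreas, the same pathway drives the epithelial to mesenchymal transition (EMT).

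The values are normalized counts, that is read counts on exons divided by a size factor of each library. Between 39196214 and 46700806 reads per library fell on the measured genes, as worked out from the step between values. Differences between replicates exceeded counting noise in every group, with ratios of 3.64 to 23.34 where counting alone gives about 1. *PHF13* itself had 1585.9 to 1804 normalized counts in the 4 libraries of siNC cells and 512.8 to 558.3 in the 4 libraries of siPHF13 cells, so that the labels hold for the targeted gene. All 6 epithelial and ductal markers searched were measured and summed to between 121809.7 and 204434.4. The 3 endothelial and 3 acinar markers, the T cell marker *CD3E* and the leukocyte marker *PTPRC* were not among the genes analysed here. The other 2 of 4 leukocyte markers, *CD14* and *CD68*, were measured and summed to between 6161.1 and 13426.1. Of 4 fibroblast markers only *PDGFRB* was measured, with 25.6 to 57.1. A gene was called higher or lower when its adjusted p (limma, Benjamini-Hochberg over all genes) was under 0.05 and its log2 fold change was beyond 0.58 in size, the study's own thresholds.

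*SKIL* and *PMEPA1* hold the palindrome TGACGTCA, the cyclic AMP response element that CREB and ATF factors can bind, near the start of their GENCODE canonical transcript. The stretches below are shown because only these 2 of the inhibitor genes searched held the palindrome. The responses of the genes played no part in that choice. Each runs 5′ to 3′ on the gene's own strand in GRCh37, with the palindrome in capitals. That of *SKIL* is chr3:170075389-170075516 (plus strand, palindrome at position -54 from the transcript start), and that of *PMEPA1* is chr20:56285042-56285135 (minus strand, -4).
SKIL: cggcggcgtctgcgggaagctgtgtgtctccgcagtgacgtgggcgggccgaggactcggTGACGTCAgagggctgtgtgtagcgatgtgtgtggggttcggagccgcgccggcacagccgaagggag
PMEPA1: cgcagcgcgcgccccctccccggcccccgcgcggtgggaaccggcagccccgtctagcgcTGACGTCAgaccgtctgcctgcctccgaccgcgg
Windows from 1000 bases before to 500 bases after the canonical start were searched on both strands for 7 of the inhibitor genes, all but *SIK1*, and for 12247 measured genes in all. Of the 7, TGACGTCA was found in these 2, and it was found in 4.85% of all windows. GTCTAGAC, the palindrome of SMAD binding elements, occurred in 0 of the 7 windows and in 0.702% of all. TGAGTCA, an AP1 site, occurred in 0 of the 7 and in 14% of all. The shorter CAGAC and GGCGC were searched for in promoters of 300 bases, of which 45.3% and 48.6% held them. These shares are per promoter, while the 6 inhibitor genes in that set had 11 promoters, 3 of them of *SMAD7* and 4 of *PMEPA1*. CAGAC matched at least 1 promoter of each of the 6 genes, but not every promoter of *SMAD7* and *PMEPA1*. GGCGC matched at least 1 promoter of all of these genes but *SMAD7*. Counts per gene and shares per promoter are not directly comparable. A match of letters is not a binding site, and its part in the responses was not tested.

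Whether the inhibitors respond to TGFβ in these cells was asked first in the siNC cells. *PMEPA1*, *SIK1*, *SKIL*, *SMAD7* and *SMURF2* rose, 5 of the 8, and none fell, whereas 3.27% of all genes were called higher and 1.52% lower. The median log2 fold change was 0.85 over the 8 genes and -0.006 over all genes. *SKI*, *SMURF1* and *BAMBI* were not called, and at an unadjusted p under 0.05 from limma, with edgeR or with DESeq2 the number of the 8 that were lower was also 0. In these bulk libraries, a change in the share of cells in a given state and a change in RNA per cell cannot be told apart.

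SMAD7 is the inhibitory SMAD, which binds the active type I receptor, keeps other SMADs away from it and brings ubiquitin ligases to it. *SMAD7* (chromosome 18, 46446223 to 46477335) had 968.4 and 1046.1 normalized counts in siNC and 2037.6 and 2217.6 in siNC + TGFβ. Both treated libraries lay above both untreated ones, as was the case for 30% of all genes. The 2.11-fold rise gave a log2 fold change of 1.08 (limma, standard error 0.08, adjusted p = 1.33e-06).

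SMURF1 and SMURF2 are the ligases that SMAD7 brings to the receptor, and both also mark SMADs for degradation. *SMURF2* (chromosome 17, 62538400 to 62658425) had 4021.5 and 4155.5 normalized counts in siNC and 6291.7 and 6282.4 in siNC + TGFβ, a 1.54-fold rise (log2 fold change 0.62, standard error 0.07, adjusted p = 2.24e-05 from limma). *SMURF1* (chromosome 7, 98625063 to 98741731) had 8993.4 and 9089.4 in siNC and 11496.7 and 11483.9 in siNC + TGFβ. Its treated libraries also lay above the untreated ones, as for 30% of all genes. Its log2 fold change of 0.35 (adjusted p = 0.00116 from limma) was below the threshold on the fold.

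PMEPA1 is a membrane protein that holds SMAD2 and SMAD3 away from the receptor. *PMEPA1* (chromosome 20, 56223448 to 56286592) had 3833.7 and 3745.5 normalized counts in siNC and 18006.2 and 16900.2 in siNC + TGFβ. This was the largest rise of the 8 in counts, 13663.6. On the log2 scale it was 2.20 (standard error 0.06, adjusted p = 6.24e-11 from limma), or 4.61-fold, which could not be ranked against that of *SIK1* given below. The other membrane protein, BAMBI, resembles a type I receptor without a kinase domain. *BAMBI* (chromosome 10, 28966439 to 28971861) had between 6.91 and 29.4 normalized counts in the 8 libraries, from 7 to 31 reads. Both extremes of its range came from libraries without TGFβ, and its log2 fold change of 0.17 had a 95% confidence interval from -1.29 to 1.64, so that even a change past the threshold was not detectable at this depth.

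SKI and SKIL (also called SnoN) are nuclear corepressors that bind SMAD complexes on target genes. *SKIL* (chromosome 3, 170075130 to 170114623) had 3431.6 and 3528.4 normalized counts in siNC and 7927.2 and 8615.2 in siNC + TGFβ, a 2.38-fold rise (log2 fold change 1.25, standard error 0.07, adjusted p = 2.7e-08 from limma). *SKI* (chromosome 1, 2158827 to 2241652) had 2899.5 and 2760.7 in siNC and 3429.4 and 3146.4 in siNC + TGFβ. Its log2 fold change of 0.22 (95% confidence interval 0.06 to 0.37, adjusted p = 0.0536 from limma) missed both thresholds. Of the 2 related corepressors, *SKIL* was therefore called and *SKI* was not, with confidence intervals that do not overlap (1.11 to 1.39 for *SKIL*).

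SIK1 is a salt-inducible kinase, which acts on the CRTC coactivators of CREB and on class IIa histone deacetylases and also takes part with SMAD7 in the turnover of the TGFβ receptor. *SIK1* (chromosome 21, 44834363 to 44847011) had 1017.7 and 958.7 normalized counts in siNC and 4526.9 and 4453.7 in siNC + TGFβ. The rise was 4.54-fold, with a log2 fold change of 2.18 (limma, standard error 0.07, adjusted p = 1.03e-10), next after that of *PMEPA1*. A near-identical copy listed in some annotations as *SIK1B* was not among the genes analysed here as a row of its own.

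**Figure D1:**
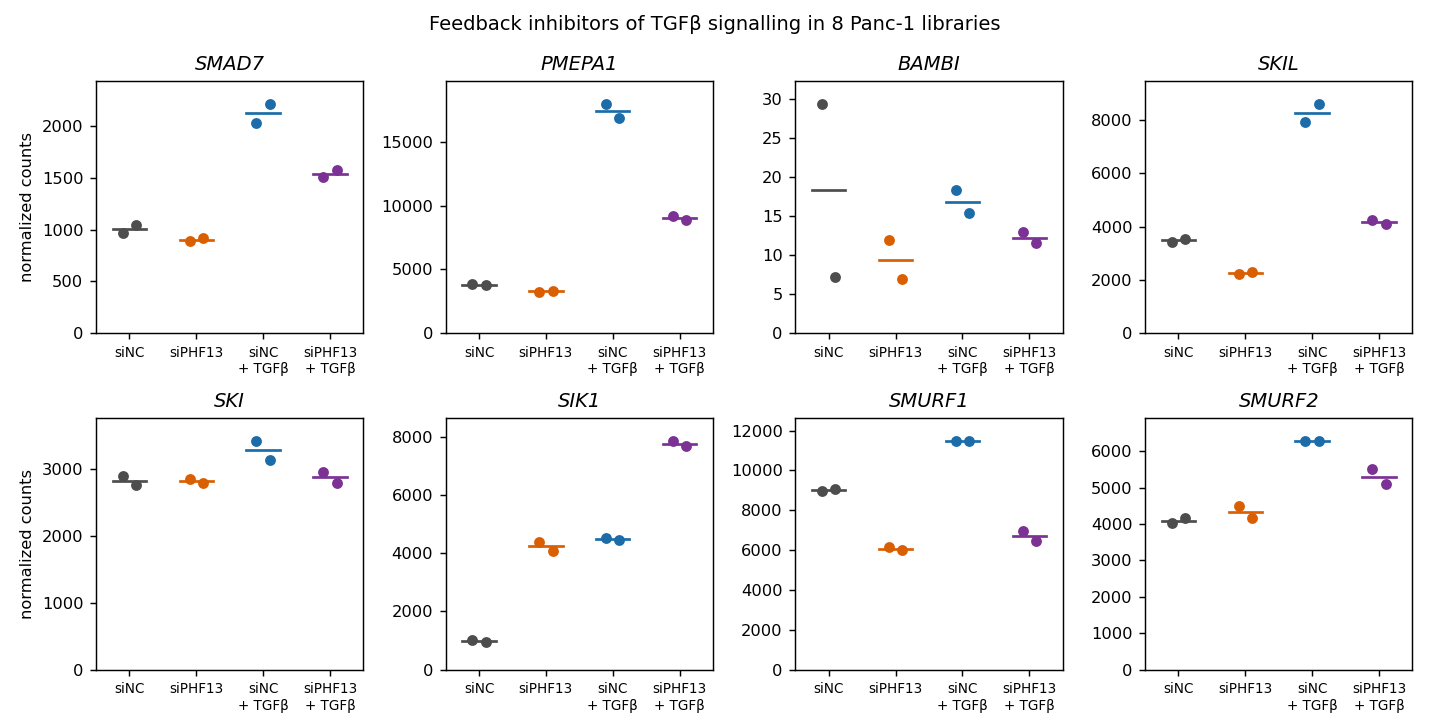
Normalized counts of the 8 feedback inhibitors by group; points are the 2 libraries of a group, short lines their mean, and each vertical axis starts at 0 with its own scale. *PMEPA1*, *SMAD7*, *SKIL*, *SMURF1* and *SMURF2* are highest in siNC + TGFβ, while *SIK1* is highest in siPHF13 + TGFβ, with 7863.3 and 7663.4 normalized counts.

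The same treatment was then compared in the cells depleted of PHF13. *PMEPA1*, *SKIL*, *SIK1* and *SMAD7* rose with TGFβ, 4 of the 8, and none fell, against 1.13% of all genes called higher and 0.218% called lower. The median log2 fold change was 0.58 over the 8 genes and -0.008 over all genes. *SMAD7* had 890.2 and 916.4 normalized counts in siPHF13 and 1507 and 1577.5 in siPHF13 + TGFβ, a 1.71-fold rise (log2 fold change 0.77, adjusted p = 0.000101 from limma). *SKIL* had 2227 and 2301.4 in siPHF13 and 4263.1 and 4103.1 in siPHF13 + TGFβ, a 1.85-fold rise (log2 fold change 0.89, adjusted p = 3.75e-06 from limma). Both inhibitors were thus raised by TGFβ, with and without PHF13 depletion.

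*PMEPA1* had 3250.5 and 3279.9 normalized counts in siPHF13 and 9164.1 and 8861.7 in siPHF13 + TGFβ, a 2.76-fold rise (log2 fold change 1.46, adjusted p = 1.66e-08 from limma). *SIK1* had 4398.3 and 4088.8 in siPHF13 and 7863.3 and 7663.4 in siPHF13 + TGFβ, a 1.83-fold rise (log2 fold change 0.87, adjusted p = 4.43e-06 from limma). For both genes every treated library lay above every untreated one, as was the case for 20% of all genes. *SMURF2* had 4485.9 and 4177.6 in siPHF13 and 5504.5 and 5093.5 in siPHF13 + TGFβ, and its log2 fold change of 0.29 passed the test (adjusted p = 0.0268 from limma) but not the threshold on the fold. *SMURF1*, *SKI* and *BAMBI* had log2 fold changes of 0.14, 0.03 and 0.39 that did not pass the test.

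Whether the response to TGFβ itself differed between siPHF13 and siNC cells was tested as an interaction, the log2 response in siPHF13 minus that in siNC. It was called lower for *SIK1* and *PMEPA1*, 2 of the 8, and higher for none, while 0.248% of all genes were called lower and 0.0601% higher. The difference was -0.74 for *PMEPA1* (standard error 0.08, 95% confidence interval -0.92 to -0.56, adjusted p = 0.00118 from limma). For *SIK1* it was -1.31 (standard error 0.09, 95% confidence interval -1.52 to -1.11, adjusted p = 2.85e-05 from limma). The responses of *SKIL*, *SMURF2* and *SMAD7* differed by -0.36, -0.33 and -0.31 with adjusted p of 0.163, 0.202 and 0.389 from limma, so that a difference was not shown for these genes. Their 95% confidence intervals, -0.56 to -0.16, -0.53 to -0.13 and -0.56 to -0.05, lie below 0, as does that of *SMURF1* (-0.39 to -0.03), but these intervals take no account of the number of genes tested. The interval of *SKI* (-0.40 to 0.02) spans 0, and that of *BAMBI* (-1.86 to 2.29) is wide.

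Measured in normalized counts, a calculation added after the values had been seen, these responses of *PMEPA1* and *SIK1* did not look alike. *PMEPA1* rose by 13663.6 normalized counts in siNC (standard error 554.7) and by 5747.7 in siPHF13 (standard error 151.9), so that its response was smaller on either scale. *SIK1* gained 3502.1 in siNC (standard error 47) and 3519.8 in siPHF13 (standard error 184.2). The difference of 17.7 between these gains lay within its standard error of 190.1, and the gain started from a level 4.29-fold higher in siPHF13 than in siNC. A smaller response of *SIK1* in siPHF13 was therefore measured on the log2 scale and not in counts. For *SMAD7*, *SKIL*, *SKI*, *SMURF1* and *SMURF2* the mean rise was smaller in siPHF13 than in siNC on both scales, but no interaction was called for them. Their differences in counts were not tested, and ran from -406.8 for *SKI* (standard error 177.6) to -2872.3 for *SKIL* (standard error 358.4).

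**Figure D2:**
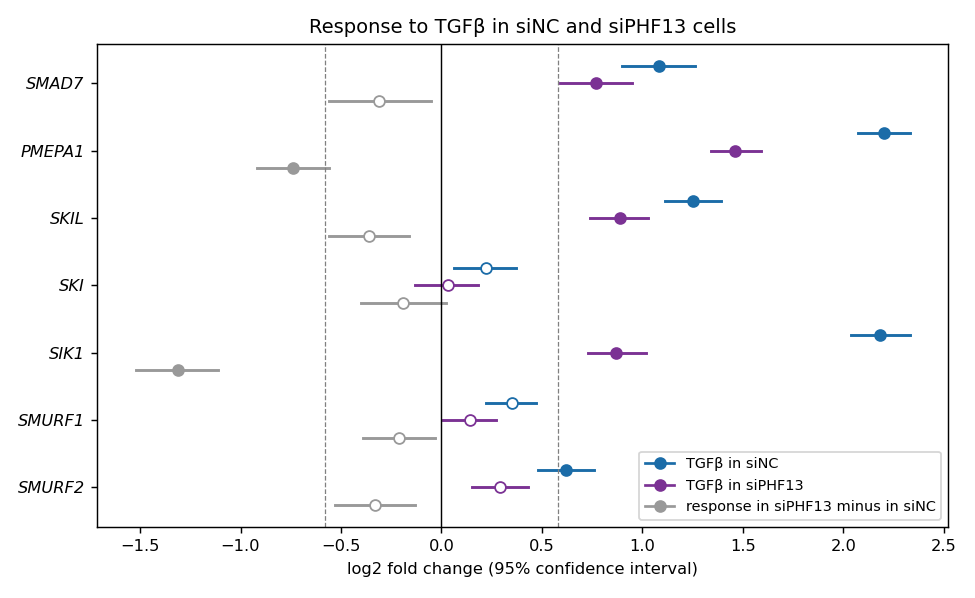
Log2 fold change with TGFβ (horizontal axis, points with 95% confidence intervals) in siNC and in siPHF13 cells, and the response in siPHF13 minus that in siNC, for 7 of the genes; filled points are called, dashed lines mark an absolute log2 fold change of 0.58, and *BAMBI* is left out because of its wide intervals. Each siPHF13 response lies below the siNC response of its gene, and the difference is called for *PMEPA1* (-0.74) and *SIK1* (-1.31).

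PHF13 depletion was also compared directly, without and with TGFβ. These comparisons use the same libraries as those above, so they are not independent of them. Without TGFβ, *SIK1* rose and *SKIL* fell, and the other 6 of the 8 were not called, while 7.95% of all genes were called higher and 10.4% lower. *SIK1* in siPHF13 stood at 429% of its siNC level (log2 fold change 2.10, standard error 0.07, adjusted p = 2e-10 from limma). Its mean of 4243.6 compares with 4490.3 in siNC + TGFβ. *SKIL* fell to 65.1% of its siNC level (log2 fold change -0.62, standard error 0.07, adjusted p = 4.87e-06 from limma). *SMURF1*, with 6138 and 6020.3 normalized counts in siPHF13 compared with the siNC values above, had a log2 fold change of -0.57 (adjusted p = 3.77e-06 from limma), just short of the threshold on the fold. *PMEPA1* had a log2 fold change of -0.21 (adjusted p = 0.00923 from limma), and *SMAD7*, *SMURF2* and *SKI* had -0.16, 0.08 and -0.00 without passing the test.

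With TGFβ, *SKIL*, *PMEPA1* and *SMURF1* fell with depletion and *SIK1* rose, while 8.81% of all genes were called higher and 11.7% lower. The median log2 fold change was -0.45 over the 8 genes and 0.003 over all genes. *SKIL* stood at 50.6% of its level in siNC + TGFβ (log2 fold change -0.98, standard error 0.07, adjusted p = 6.68e-08 from limma). *PMEPA1* stood at 51.6% (log2 fold change -0.95, standard error 0.06, adjusted p = 3.96e-08 from limma). *SMURF1*, with 6954.3 and 6457.4 normalized counts in siPHF13 + TGFβ, stood at 58.4% (log2 fold change -0.78, standard error 0.06, adjusted p = 2.13e-07 from limma). *SMAD7* at 72.5% and *SMURF2* at 84.3% passed the test (adjusted p = 0.000455 and 0.0062 from limma), as did *SKI* at 87.5% (adjusted p = 0.0362 from limma), but not the threshold on the fold. *SIK1* was 1.73-fold higher (log2 fold change 0.79, standard error 0.07, adjusted p = 5.48e-07 from limma). The kinase gene thus moved against the other called inhibitors in both comparisons.

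The level after both treatments was set against untreated siNC cells. *SIK1*, *PMEPA1* and *SMAD7* were higher in siPHF13 + TGFβ than in siNC, 3 of the 8, and none was called lower (1 at an unadjusted p under 0.05 from limma, 0 with edgeR or DESeq2), against 9.75% of all genes called higher and 11.4% called lower. *SIK1* was 7.86-fold higher (log2 fold change 2.97, standard error 0.07, adjusted p = 3.19e-12 from limma). *PMEPA1* was 2.38-fold higher (log2 fold change 1.25, adjusted p = 2.39e-09 from limma) and *SMAD7* 1.53-fold higher (log2 fold change 0.61, adjusted p = 4.03e-05 from limma). Without siNC replicate 1 the *SMAD7* value was 0.56 and no longer called. *SKIL* had a log2 fold change of 0.27, *SMURF2* one of 0.37 and *SMURF1* one of -0.43 (adjusted p = 0.0041, 0.000326 and 3.89e-05 from limma), all under the threshold on the fold.

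Levels of different genes can be set side by side only per length, as normalized counts per kb of the canonical transcript. The order below assumes the canonical length for each gene, such as 7155 bases for *SKIL* and 6083 for *SKI*. Which transcripts the cells express was not measured, and the SDs do not cover this. In siNC, *SMURF1* had the highest level, 1595 per kb (SD 12, n = 2), followed by *PMEPA1* with 765 (SD 12.6), *SMURF2* with 655 (SD 15.2), *SKIL* with 486 (SD 9.57), *SKI* with 465 (SD 16.1), *SMAD7* with 301.5 (SD 16.4), *SIK1* with 208 (SD 8.79) and *BAMBI* with 10.8 (SD 9.28). The libraries of neighbours in this order did not overlap, although *SKIL* and *SKI* differed by little more than their SDs. In siNC + TGFβ, *PMEPA1* came first with 3523 per kb (SD 157.9), before *SMURF1* with 2027 (SD 1.6) and *SKIL* with 1156 (SD 68). *SMURF2* followed with 1008 (SD 1.05), *SIK1* with 946 (SD 10.9), *SMAD7* with 637 (SD 38.1) and *SKI* with 540.5 (SD 32.9).

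In siPHF13, *SIK1* moved to the second place with 894 per kb (SD 46.1), after *SMURF1* with 1072.5 (SD 14.7) and before *SMURF2* with 694 (SD 34.9) and *PMEPA1* with 659 (SD 4.2). *SKI* with 465 (SD 7.67) then stood above *SKIL* with 316.5 (SD 7.35) and *SMAD7* with 270.4 (SD 5.54). In siPHF13 + TGFβ, *PMEPA1* with 1819 (SD 43.2) was followed by *SIK1* with 1635 (SD 29.8), *SMURF1* with 1183 (SD 62), *SMURF2* with 849 (SD 46.6) and *SKIL* with 585 (SD 15.8). The libraries of *SKI* with 473 (SD 17.4) and *SMAD7* with 462 (SD 14.9) overlapped there, so that these neighbours did not differ beyond their spread. *BAMBI* was last in every group, with 5.57 to 10.8 per kb.

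**Figure D3:**
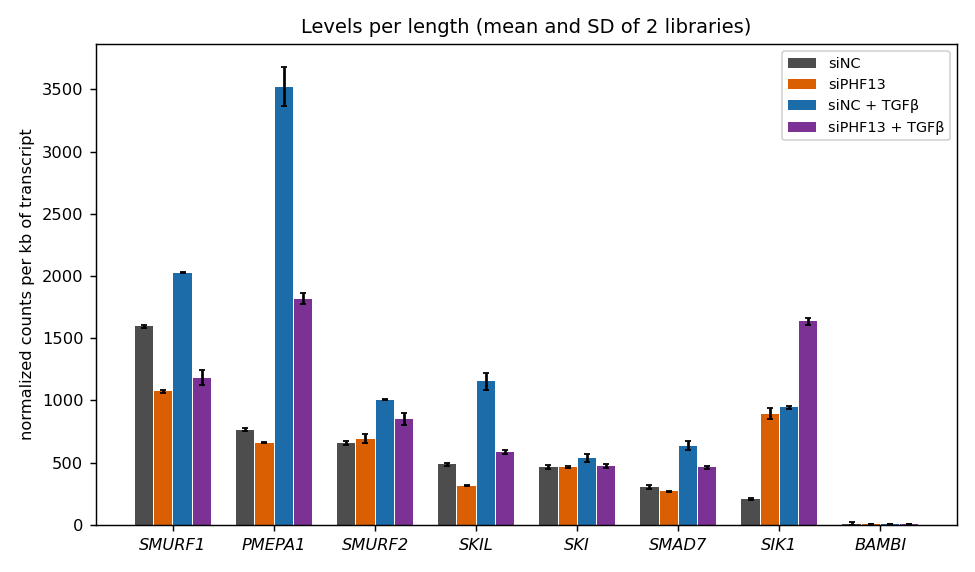
Normalized counts per kb of canonical transcript (vertical axis, from 0) of the 8 genes in the 4 groups; bars are means and error bars SDs of 2 libraries. *SMURF1* leads without TGFβ (1595 in siNC and 1072.5 in siPHF13) and *PMEPA1* leads with TGFβ (3523 in siNC + TGFβ and 1819 in siPHF13 + TGFβ).

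Over the 8 libraries, which share the 4 conditions, the log2 levels of *SMAD7* and *PMEPA1* had a Pearson correlation of 0.99, those of *PMEPA1* and *SMURF2* 0.97, and those of *SMAD7* and *SKIL* 0.95. *SIK1* followed *SMURF2* at 0.63 and *PMEPA1* at 0.51, and its correlation with *SMURF1* was -0.33. Among the 11194 genes whose mean reached 100 normalized counts, those whose levels were most like those of *PMEPA1* were *SPOCK1* (0.993), *MMP17* (0.992) and *NPTXR* (0.992). For *SMAD7* they were *SLC35F2* (0.998), *JAG1*, a Notch ligand (0.996), and *ADA*, adenosine deaminase (0.991), and for *SKIL* the collagen gene *COL1A1*, *PDGFA* and *FSTL1* (each 0.995). For *SIK1* they were *NT5E*, which encodes the ectonucleotidase CD73 (0.996), *LYPLA1* (0.993) and *TGFBI*, a matrix protein gene named for its induction by TGFβ (0.992). *TGFBI* had positive log2 fold changes with TGFβ in siNC (1.06) and with depletion alone (1.14), as *SIK1* did. This follows from its choice by likeness over the same libraries and is no separate result. For *SMURF1* the most alike were *PLCG1* (0.999), *GLCE* (0.998) and *TRAF1* (0.997), and for *SMURF2* *RAI14* (0.993), *SLFNL1* (0.991) and *PRKAB2* (0.990). These correlations describe 8 libraries in 4 groups and were not tested.

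Where a count of called genes is 0 here or in the lists that follow, edgeR and DESeq2 on recovered reads also gave 0. The shares of all genes called in each comparison, printed above, are the background for these lists, and the medians over all genes lay between -0.008 and 0.003. The inhibitors act on receptors and SMADs, of which 17 of 19 listed genes were measured. With TGFβ in siNC, *BMPR2*, a receptor for bone morphogenetic proteins, rose (log2 fold change 0.95) and *TGFBR3*, the co-receptor betaglycan, fell (-0.87), and in siPHF13 none of the 17 was called (3 higher and 3 lower at an unadjusted p under 0.05). Depletion without TGFβ raised 1 and lowered 4, among them *TGFBR3* (-1.32), the type I receptor gene *TGFBR1* (-0.92) and the activin receptor gene *ACVR2B* (-0.82), with a median of -0.15 over the 17, while 7.95% of all genes were called higher and 10.4% lower. With TGFβ, 6 were lower and none higher (2 at an unadjusted p under 0.05), led by *BMPR1B* (-1.24), *TGFBR1* (-1.10) and *TGFBR3* (-0.92), with a median of -0.21, against 11.7% of all genes called lower. DESeq2 called 5 lower. *BMPR1B* had low counts, with means of 34.7 in siNC + TGFβ and 14.4 in siPHF13 + TGFβ. The receptor gene *TGFBR1*, which encodes the target of SMAD7 and the SMURF ligases, thus had a mean of 1624.6 normalized counts in siNC and 1779.4 in siNC + TGFβ, and 858 and 836 in the siPHF13 groups. No interaction was called among the 17 genes (1 higher and 3 lower at an unadjusted p under 0.05), and after both treatments 1 was higher and 4 lower than in siNC.

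Of 16 other negative regulators of the pathway, 15 were measured. *VASN*, whose product binds TGFβ itself, rose with TGFβ in siNC (log2 fold change 0.93) and in siPHF13 (0.74), and was the only one called in either. Depletion without TGFβ lowered *VASN* (-0.89) and *TGIF2*, a SMAD corepressor gene (-0.71), and raised *FKBP1A*, whose product guards the type I receptor (0.77). These 2 lower and 1 higher of 15 are near the 10.4% and 7.95% of all genes, and the median was -0.25. With TGFβ it lowered 5 of the 15, led by the activin antagonist gene *FST* (-1.39), *VASN* (-1.08) and *TGIF2* (-0.72), and raised none (2 at an unadjusted p under 0.05), with a median of -0.31 and 11.7% of all genes called lower. There edgeR called 4 lower. *FST* had low counts, with means of 59.1 in siNC + TGFβ and 25.1 in siPHF13 + TGFβ. After both treatments 1 was higher and 2 were lower than in siNC, and no interaction was called (1 lower at an unadjusted p under 0.05). Of 5 genes for proteins that counter the inhibitors, such as the ubiquitin ligase RNF111 and deubiquitinases of the receptor, only *USP11* was called, higher with depletion in the presence of TGFβ (0.61), with 1 lower at an unadjusted p under 0.05. In the other comparisons, that count was 1 lower for TGFβ in siNC, 0 for TGFβ in siPHF13, 3 higher for depletion without TGFβ, 2 higher and 1 lower after both treatments, and 0 for the interaction.

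The response of the inhibitors stands beside that of other genes known to be induced by TGFβ, 28 of 30 of which were measured. This list was chosen with earlier results of these data known, so its counts are a description and not an independent measure. In siNC, 21 of the 28 rose with TGFβ and none fell (0 at an unadjusted p under 0.05), with a median log2 fold change of 1.06, led by the protease gene *ADAM19* (2.37) and the collagen genes *COL1A1* (2.23) and *COL7A1* (1.82). In siPHF13, 13 rose and none fell (also 0), with a median of 0.68, led by *COL1A1* (1.33), *COL7A1* (1.31) and the EMT factor gene *SNAI1* (1.16). The interaction was called lower for 8 of the 28 and higher for none (0 at an unadjusted p under 0.05), led by *ADAM19* (-1.21), *COL1A1* (-0.89) and the integrin gene *ITGA5* (-0.73). Depletion without TGFβ raised 8, led by *ADAM12* (2.05, with low means of 11.2 in siNC and 49 in siPHF13). It lowered 7, among them *COL4A1* (-1.75) and *SNAI1* (-1.66). With TGFβ it lowered 12, led by *COL4A1* (-2.10), *SNAI1* (-1.99) and *COL1A1* (-1.72), and raised none (7 at an unadjusted p under 0.05). After both treatments 14 were higher and 1 lower than in siNC, with a median log2 fold change of 0.64. Over all genes, 3.27% were called higher with TGFβ in siNC and 1.13% in siPHF13, and 0.248% lower for the interaction. Depletion called 7.95% of all genes higher and 10.4% lower without TGFβ, and 8.81% higher and 11.7% lower with it. After both treatments 9.75% of all genes were called higher and 11.4% lower.

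Genes that work with SIK1 were read beside the shares of all genes. Depletion called 7.95% higher and 10.4% lower without TGFβ, and 8.81% higher and 11.7% lower with it. With 9 or 10 genes in a list, counts as small as those below do not set it apart from all genes. Of 9 genes of the SIK axis, among them *SIK2*, *SIK3*, the upstream kinase gene *STK11*, the 3 CRTC coactivator genes and class IIa histone deacetylase genes, none was called with TGFβ or with depletion in either state, and *HDAC5* was called higher after both treatments (log2 fold change 0.83). At an unadjusted p under 0.05, 3 of the 9 were higher and 1 lower with TGFβ in siNC, 2 higher in siPHF13, and 3 higher and 4 lower with depletion without TGFβ and 4 higher and 3 lower with it, and after both treatments 2 were lower. Of 10 target genes of cyclic AMP and CREB, *NR4A1* rose with TGFβ in siNC (0.76) and none was called in siPHF13 (2 higher at an unadjusted p under 0.05). *FOSB* rose with depletion without TGFβ (0.93) and none of the 10 was called lower, although 3 were lower at an unadjusted p under 0.05 and the median was -0.37. With TGFβ none was called higher (1 at an unadjusted p under 0.05), and *PDE4D* (-0.78) and *NR4A2* (-0.74) fell with depletion, with a median of -0.24. After both treatments *FOSB* (1.38) and *NR4A1* (0.61) were higher than in siNC and none was called lower (3 at an unadjusted p under 0.05). No interaction was called in either list (0 in each at an unadjusted p under 0.05).

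The marker lists were also read by group, without a test. The summed epithelial and ductal markers ranged from 193826.9 to 204434.4 in siNC, from 171870.5 to 194633.1 in siPHF13, from 121809.7 to 127489.8 in siNC + TGFβ, and from 138487.6 to 150248.2 in siPHF13 + TGFβ. The 2 leukocyte markers measured of 4, *CD14* and *CD68*, summed to between 7310.8 and 7438.8 in siNC and 11944.7 and 13094.1 in siPHF13, and to between 6161.1 and 7710.5 and between 10576.8 and 13426.1 in the same cells with TGFβ. The 3 mesenchymal markers, *VIM*, *CDH2* and *FN1*, had sums from 162684.9 to 164749.5 in siNC, from 164987.3 to 169914 in siPHF13, from 198412 to 205762.4 in siNC + TGFβ, and from 180445.8 to 196104.3 in siPHF13 + TGFβ. *FN1* had group means of only 71.2 to 180.5 normalized counts, so these sums do not describe it. Tested among the TGFβ-induced genes above, *FN1* was called lower with depletion alone (log2 fold change -0.83, adjusted p = 0.0286 from limma). Depletion in the presence of TGFβ also lowered it (-1.27, adjusted p = 0.00224 from limma). It was not called for TGFβ in control cells (0.57) or depleted cells (0.13). The part of these 3 lists in the results for the inhibitors was not tested.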

How the data were processed

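mRNA of 8 Panc-1 libraries was analysed, in 4 groups of 2 taken from the labels. The authors trimmed paired-end reads (Trim Galore 0.4.1), mapped them with STAR 2.7.0 to hg19, counted exonic reads with HTSeq 0.12.4 and normalized with DESeq2. Annotation release and strand setting are not given in the sources used here. The deposited signal is a count divided by a size factor. The authors' 3 tables of their own comparisons, which hold fold changes and p-values, were not used.

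The values were tested with limma 3.58.1 (R 4.3.3, trended prior variance) on log2(value + 1) in 1 fit over all 8 libraries, two-sided, in 6 comparisons. A fold change on this scale understates the change of low genes. Requiring 10 normalized counts or more in 2 libraries left out 0 genes. The members and gene lists were chosen with earlier results of these data known. From each list, at most the 3 called genes with the largest absolute log2 fold change were named in each comparison. The check of the procedure on simulated data with 200 of 13307 genes changed by a log2 fold change of 1 found 171 (85.5%) for TGFβ in siNC, with 2 others called, and 159 (79.5%) for the interaction, with 1 other. Positions and 1500-base windows come from GENCODE 44 lifted to GRCh37, the same build as hg19. The labels do not say whether libraries with the same replicate number belong together, and no block was used in the main fit. All values were whole multiples of the worth of 1 read (100% within 1e-06 reads), so edgeR 4.0.16 and DESeq2 1.42.0 were run on the recovered reads as alternatives. The sequence around the start of *SIK1* is not reported here.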

Additional observations from a re-analysis of the deposited data

Results flagged for a closer look

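The response to TGFβ differed between siPHF13 and siNC cells by the test of the interaction for 2 of the 8 inhibitors. For *SIK1* the log2 response was smaller in siPHF13 by a difference of -1.31, and over all 8 libraries left out in turn it stayed between -1.36 and -1.26 with adjusted p of at most 0.00103 from limma. For *PMEPA1* the difference was -0.74, and with each library left out in turn it stayed between -0.78 and -0.69 with adjusted p of at most 0.0334 from limma.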

How the results depend on the processing

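With 2 libraries a group, an adjusted p rests on the spread shared over all groups, and where a library was left out its lone partner was assumed to vary like the others. Over 16 planned settings, the called values of the 8 inhibitors kept their call and direction in 317 of 318 recomputed values. The exception was *SMAD7* after both treatments without siNC replicate 1. *SMURF1* with depletion without TGFβ became called without siNC replicate 1 (-0.58) or siPHF13 replicate 1 (-0.59). Without a threshold on the fold change, 2114 genes were called for TGFβ in siNC, 409 for TGFβ in siPHF13, 6308 and 6712 for depletion without and with TGFβ and 6789 for both treatments, against 637, 179, 2448, 2726 and 2812. The interaction was called for 41 genes, for 64 with DESeq2, and for 12 (without siNC replicate 2) to 111 (without siPHF13 + TGFβ replicate 1) with 1 library left out. Without siNC replicate 1, siPHF13 replicate 1, siNC + TGFβ replicate 1 or siNC + TGFβ replicate 2 it was called for 19, 22, 16 and 21. The cause was not tested. edgeR on recovered reads called 640, 176, 2437, 2724, 2824 and 42 genes in the 6 comparisons.

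Some values that did not pass the test changed sign. *BAMBI* with TGFβ in siNC was -0.11 with edgeR and -0.11 with DESeq2, and ranged from -0.77 to 1.12 with 1 library left out. Its other ranges were -1.59 to 0.30 for depletion without TGFβ (-0.64 with all libraries, 0.30 without siNC replicate 1), -1.20 to 0.69 after both treatments and -0.73 to 1.16 for the interaction. *SKI* ranged from -0.01 to 0.06 with TGFβ in siPHF13, from -0.04 to 0.03 for depletion without TGFβ (0.00 with TMM and with edgeR) and from -0.01 to 0.06 after both treatments. The difference of *SIK1* in counts, 17.7, was added after its values had been seen. It lies within its standard error of 190.1, so that it has no clear direction.

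With the replicate block, 630, 171, 2438, 2711, 2794 and 39 genes were called in the 6 comparisons, and none of the calls for the 8 inhibitors changed. Deviations of same-numbered libraries correlated between -0.252 and 0.271. Such values cannot show whether these libraries were handled together, which the labels do not say.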
